A study of Rattus norvegicus with 9 samples.

Results

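The genes described here are those of the glutathione and thioredoxin systems with the antioxidant enzymes around them, in ventral midbrain cultures and tissue of rat embryos. They were taken by symbol from the array's annotation: the glutathione transferases (Gsta, Gstm, Gstp, Gstt, Gsto, Gstk, Mgst), the glutathione peroxidases, peroxiredoxins, thioredoxins, superoxide dismutases and glutaredoxins. To these were added Hmox1, Hmox2, Nqo1, Cat, Gclc, Gclm, Gsr, Gss, Nfe2l2, Keap1, Srxn1, Mt1, Mt2A and Mt3. Each gene was read from its brightest probe set that carries a single symbol, which gave 65 antioxidant genes of 10411 genes in all. Prdx1 had no such probe set and was not analysed here.

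The MesPC group is 6 arrays of primary cultures, dissociated from the ventral midbrain of rat embryos at embryonic day 11 and kept in vitro for 9 days. The MesE11 group is 3 arrays of ventral midbrain tissue at embryonic day 11. Per the labels, embryos of 4 pregnant rats were mixed into 3 groups handled separately, the midbrains of a group were pooled, and cultures were grown in duplicate. The 6 culture arrays may therefore hold fewer than 6 independent cultures, and each p-value measures only the spread between these arrays. The labels name no strain, genotype or drug that separates the groups, which differ in stage, in dissociation and in growth in vitro all at once. Levels are log2 intensities on the array, so 1 unit is a factor of 2. Differences are MesPC minus MesE11, given ± the standard error of limma's fit to the 6 and 3 arrays, with p-values adjusted by the Benjamini-Hochberg method over 15866 probe sets and a threshold of 0.05.

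As background, cells keep oxidants in check with thiols. Glutathione is made by glutamate-cysteine ligase and glutathione synthetase, is spent by peroxidases and transferases, and is recycled by glutathione reductase, while thioredoxin, its reductase and the peroxiredoxins form a parallel chain. The transcription factor NRF2, product of Nfe2l2, drives many of these genes through antioxidant response elements and is held down by KEAP1, and metallothioneins bind zinc and copper through their many cysteines. In the midbrain these systems are studied because dopamine oxidises to quinones and peroxide.

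Of the 65 antioxidant genes, 31 (47.7%) were higher and 9 (13.8%) were lower in MesPC than in MesE11 by limma with Benjamini-Hochberg adjustment. Over all 10411 genes the same test called 21.9% higher and 22.7% lower. At a change of 2-fold or more, 15 antioxidant genes (23.1%) were higher and 0 were lower, against 3.63% higher and 2.13% lower among all genes. The median difference was 0.16 over the antioxidant genes and -0.06 over all genes. In 29 of the 65 (44.6%) every MesPC value lay above every MesE11 value, and in 9 (13.8%) below, against 21.1% and 23.3% of all genes. The background leaned upward among brighter genes. Without the dimmest 40% of probe sets, 28.4% of 7020 genes were higher and 20.4% lower, beside 27 higher and 8 lower of 54 antioxidant genes. The 15 that rose 2-fold or more were Nfe2l2, Nqo1, Hmox1, Gpx8, Txndc5, Sod3, Mt2A, Mt3 and the transferases Mgst1, Gstm1, Gstt3, Gsta1, Gstp1, Gsta4 and Gstt2.

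**Figure D1:**
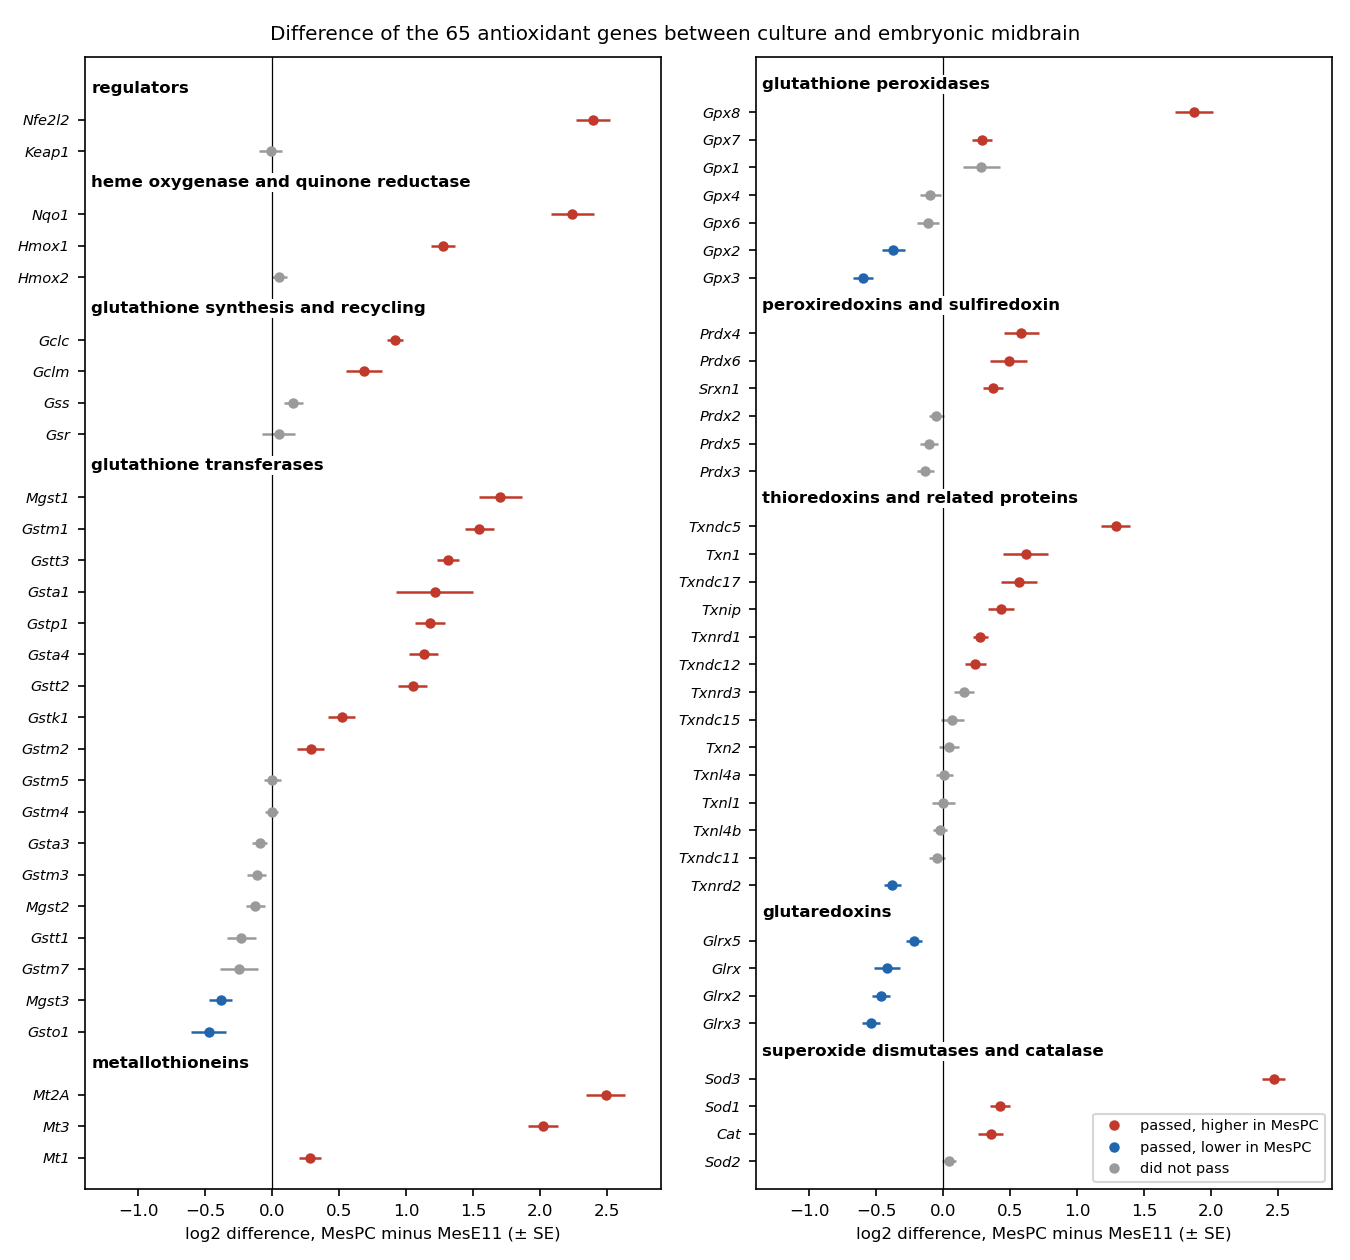
Difference in log2 intensity (MesPC minus MesE11, x axis) of the 65 antioxidant genes, grouped by family down the page, with the standard error as a bar. Colour marks the genes that were higher, lower or did not pass the adjusted threshold of 0.05. The largest rises, Mt2A at 2.49, Sod3 at 2.47 and Nfe2l2 at 2.40, stand far to the right, and the largest fall is Gpx3 at -0.60.

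Markers of several cell types differed between the groups as well. Of 10 fibroblast markers 9 were higher in MesPC and 1, Thy1, was lower, and their mean level was 10.56 to 10.72 in MesPC arrays against 8.04 to 8.21 in MesE11 arrays. Of 10 astrocyte markers 7 were higher, with means of 10.23 to 10.54 in MesPC and 9.33 to 9.58 in MesE11. Gfap (0.07 ± 0.08) and Slc1a2 (0.09 ± 0.06) were among the 3 that did not pass. Of 9 neuron markers 5 were lower, with means of 10.53 to 11.74 in MesPC and 12.21 to 12.32 in MesE11, and 6 of 8 dopaminergic neuron markers were lower, with 7.90 to 8.91 in MesPC and 9.41 to 9.43 in MesE11. All 7 erythroid markers, 6 of 8 endothelial and 7 of 10 microglial markers were lower. Their means were 6.91 to 7.28, 7.08 to 7.38 and 7.16 to 7.32 in MesPC, against 10.01 to 10.32, 8.33 to 8.36 and 7.64 to 7.67 in MesE11. In MesPC the markers Hbg1, Ahsp, Cldn5, Pecam1, C1qc, Ptprc, Tyrobp and Pitx3 averaged no more than the brightest bacterial control probe set (6.68), and in MesE11 Lum, Aqp4, Ptprc and Pecam1 did. These shifts run alongside every result below, and their part in the results was not tested. In such bulk samples fewer cells of a type and less RNA per cell cannot be told apart.

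The culture arrays fell into 2 sets, 1 to 3 and 4 to 6, for which the labels name no cause. Across all probe sets, which are not independent, Pearson's r was 0.997 to 0.998 within each set and 0.982 to 0.987 between the sets. Arrays 1 to 3 lay farther from the tissue (0.943 to 0.953) than arrays 4 to 6 (0.966 to 0.974). A random block was then fitted, with each culture set as a block and the MesE11 arrays as another. The groups thus differ only between blocks, and the tissue is a single block. In this fit 23 antioxidant genes were higher and 6 lower, against 13.2% and 9.11% of all genes. The 11 that no longer passed were Gstm2, Gsto1, Gpx2, Gpx7, Prdx6, Srxn1, Txndc12, Txnrd1, Glrx5, Cat and Mt1. None of the 15 genes that rose 2-fold or more is among them.

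The regulators were read first. The level of Nfe2l2, the gene of NRF2, was 9.30 at lowest, 9.47 in the median and 9.75 at highest in the MesPC arrays, against 7.21, 7.13 and 6.97 in the MesE11 arrays. The groups lay far apart, and the difference of 2.40 ± 0.13 is a 5.27-fold higher level (adjusted p = 7.43e-07). Culture arrays 4 to 6 hold the same deposited value for Nfe2l2, which happens in 37 of 10411 genes, so these arrays add no spread of their own there. Keap1, whose product marks NRF2 for degradation, had a lowest, median and highest level of 8.71, 8.79 and 9.06 in MesPC, against 8.85, 8.88 and 8.85 in MesE11. These ranges overlap, and the difference of -0.01 ± 0.09 did not pass (adjusted p = 0.923). The further Keap1 probe set gave -0.01 ± 0.13 and did not pass.

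Of the heme oxygenases and the quinone reductase, known NRF2 targets among them, 2 of 3 were higher. Nqo1, a quinone reductase that keeps quinones from cycling back into oxidants, had levels of 10.69, 11.04 and 11.36 (lowest, median, highest) in MesPC, against 8.91, 8.65 and 8.83 in MesE11. Every culture array was above every tissue array, by 2.24 ± 0.16 or 4.73-fold (adjusted p = 4.45e-06). Hmox1, the inducible heme oxygenase that breaks heme down to biliverdin, iron and carbon monoxide, had levels of 9.21, 9.39 and 9.48 in MesPC, against 8.29, 7.88 and 8.11 in MesE11. This was 2.42-fold higher with no overlap (1.28 ± 0.09, adjusted p = 4.83e-06). Hmox2, the constitutive heme oxygenase, differed by 0.05 ± 0.06 and did not pass (adjusted p = 0.469).

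Of the 4 genes that make or recycle glutathione, the pair that encodes its rate-limiting enzyme rose. Gclc, the catalytic subunit of glutamate-cysteine ligase, had levels of 10.05, 10.16 and 10.26 in MesPC, against 9.31, 9.17 and 9.27 in MesE11, a clear gap (0.92 ± 0.06, 1.89-fold, adjusted p = 2.95e-06). Its further probe set rose by 0.81 ± 0.09. Gclm, the modifier subunit, had levels of 7.70, 8.06 and 8.24 in MesPC, against 7.43, 7.35 and 7.17 in MesE11 (0.68 ± 0.14, 1.61-fold, adjusted p = 0.00318). The groups did not overlap, although culture arrays 4 to 6 were close to the tissue. Gss, glutathione synthetase, had levels of 9.17, 9.35 and 9.42 in MesPC, against 9.12, 9.26 and 9.09 in MesE11, which overlap (0.16 ± 0.07, adjusted p = 0.0931). Gsr, which reduces oxidised glutathione with NADPH, had levels of 8.12, 8.22 and 8.31 in MesPC, against 8.48, 8.23 and 7.80 in MesE11. The MesPC values lay inside the MesE11 range (0.05 ± 0.13, adjusted p = 0.769).

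**Figure D2:**
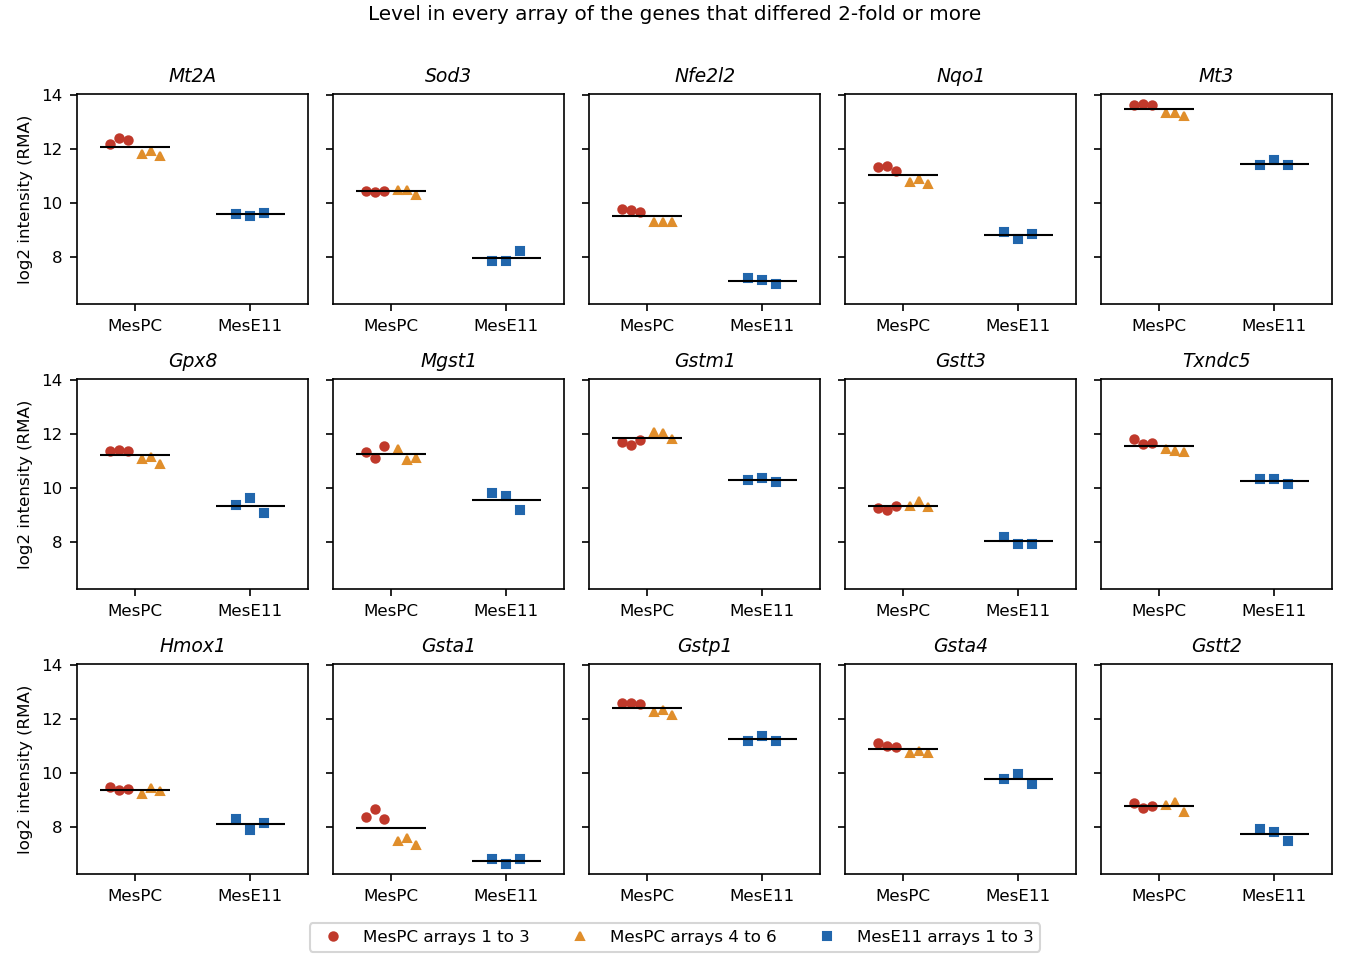
Log2 intensity (y axis) of the 15 antioxidant genes that differed 2-fold or more, in each of the 6 MesPC arrays (left in each panel, arrays 1 to 3 as circles and 4 to 6 as triangles) and the 3 MesE11 arrays (right, squares), with the group mean as a line. Every MesPC point lies above every MesE11 point, and the culture sets part most in Gsta1, by 0.98.

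The promoters of the genes in RefSeq's rat assembly GRCr8 were searched on both strands for the antioxidant response element core TGACNNNGC, from 250 bases before to 50 after each gene's start. Of the 65 antioxidant genes, 56 had an entry, and 19 of these 56 (33.9%) held the core at any of their starts, against 13.1% of 27457 genes with an entry. The genes without an entry were Hmox1, Gsr, Gstt1, Gstt2, Mgst2, Gpx8, Prdx6, Txnip and Sod3. The core stood in 10 of 25 genes that were higher, 1 of 9 that were lower and 8 of 22 that did not pass. Nqo1 was searched and held no match in its window. The windows of Nfe2l2, Gstp1 and Gclm are printed as examples picked from the 10 higher genes with the core. Each holds 1 match, in capitals. In Nfe2l2 the match lies after the gene's start. In Gstp1 it overlaps the AP-1 motif TGANTCA. A match is a string of letters and not a measured binding site.
Nfe2l2, chr3:81028950-81029249, minus strand: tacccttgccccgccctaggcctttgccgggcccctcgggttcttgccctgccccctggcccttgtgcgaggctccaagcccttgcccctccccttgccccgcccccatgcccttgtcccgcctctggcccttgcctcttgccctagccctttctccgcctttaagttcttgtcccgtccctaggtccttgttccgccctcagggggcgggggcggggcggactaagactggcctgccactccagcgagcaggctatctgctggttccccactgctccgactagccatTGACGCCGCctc
Gstp1, chr1:210769656-210769955, minus strand: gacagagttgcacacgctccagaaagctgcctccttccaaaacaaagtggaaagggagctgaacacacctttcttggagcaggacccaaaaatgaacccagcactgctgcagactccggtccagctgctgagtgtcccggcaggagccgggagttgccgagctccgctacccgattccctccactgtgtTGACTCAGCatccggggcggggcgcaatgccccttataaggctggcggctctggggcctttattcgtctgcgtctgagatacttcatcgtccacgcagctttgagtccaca
Gclm, chr2:213031885-213032184, plus strand: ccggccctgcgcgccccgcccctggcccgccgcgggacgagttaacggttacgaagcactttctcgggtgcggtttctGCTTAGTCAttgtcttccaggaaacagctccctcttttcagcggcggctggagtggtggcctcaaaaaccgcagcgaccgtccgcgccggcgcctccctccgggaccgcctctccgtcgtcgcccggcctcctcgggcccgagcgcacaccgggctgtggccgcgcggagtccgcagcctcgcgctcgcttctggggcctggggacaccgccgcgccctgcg

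Glutathione transferases, which couple glutathione to reactive compounds, held 9 higher, 2 lower and 7 that did not pass, of 18. Mgst1, a microsomal transferase with peroxidase activity, had levels of 11.03, 11.22 and 11.55 in MesPC, against 9.82, 9.70 and 9.16 in MesE11. It was 3.26-fold higher in MesPC (1.70 ± 0.16, adjusted p = 3.21e-05), and the groups were far apart. The mu-class gene Gstm1 had levels of 11.59, 11.80 and 12.05 in MesPC, against 10.28, 10.38 and 10.20 in MesE11, 2.92-fold higher with no overlap (1.55 ± 0.11, adjusted p = 4.05e-06). Gstp1, the pi-class transferase whose promoter is printed above, had levels of 12.14, 12.45 and 12.61 in MesPC, against 11.19, 11.36 and 11.18 in MesE11. Its values did not overlap either (1.18 ± 0.11, 2.26-fold, adjusted p = 3.45e-05).

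The alpha class gave a wider spread. Gsta4, which conjugates hydroxynonenal, a product of lipid peroxidation, had levels of 10.74, 10.89 and 11.12 in MesPC, against 9.76, 9.96 and 9.57 in MesE11 (1.13 ± 0.11, 2.19-fold, adjusted p = 3.41e-05). Gsta1 had levels of 7.30, 7.94 and 8.67 in MesPC, against 6.81, 6.59 and 6.80 in MesE11 (1.21 ± 0.29, 2.32-fold, adjusted p = 0.00791). The MesE11 values of Gsta1 lay at about the brightest bacterial control probe set (6.68), so its fold is less certain than those of brighter genes. Both genes were above the tissue in every culture array, but Gsta1 differed between the culture sets by 0.98. Set against MesE11 one at a time, culture arrays 1 to 3 differed by 1.70 and arrays 4 to 6 by 0.72, and each passed. Of the theta class, Gstt3 had levels of 9.18, 9.31 and 9.49 in MesPC, against 8.17, 7.92 and 7.91 in MesE11 (1.31 ± 0.08, 2.48-fold, adjusted p = 1.99e-06). Gstt2 had levels of 8.56, 8.77 and 8.92 in MesPC, against 7.90, 7.80 and 7.44 in MesE11 (1.05 ± 0.11, 2.07-fold, adjusted p = 5.66e-05). Neither theta gene overlapped between the groups.

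The other transferases moved less. Gstk1, the kappa-class enzyme of mitochondria and peroxisomes, rose by 0.52 ± 0.10, and Gstm2 by 0.29 ± 0.10. The Gstm2 call was slight: its groups overlapped, its adjusted p was 0.041, and it failed in 11 alternative settings. Those that fell were Gsto1, an omega-class transferase that reduces dehydroascorbate (-0.47 ± 0.13, adjusted p = 0.017), and the microsomal Mgst3 (-0.38 ± 0.08, adjusted p = 0.0052). Gstm3, Gstm4, Gstm5, Gstm7, Gsta3, Gstt1 and Mgst2 did not pass, with differences between -0.24 and 0.00. The level of Gsta3 averaged below the brightest bacterial control probe set in both groups, so it was not well above background. Gene copies of 1 class are alike in sequence, and how far their probe sets also bind each other's RNA was not tested.

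In GRCr8 the 6 Gstm genes on the array start within 1 stretch of chromosome 2, their promoter windows spanning chr2:198219519-198373633. In order along the chromosome they are Gstm5, Gstm7, Gstm3, Gstm2, Gstm1 and Gstm4, and their differences were 0.00, -0.24, -0.12, 0.29, 1.55 and -0.00. Gstm1 alone of the 6 differed by 2-fold or more.

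The glutathione peroxidases, which reduce peroxides with glutathione, were split, with 2 of 7 higher and 2 lower. Gpx8, a peroxidase anchored in the membrane of the endoplasmic reticulum, had levels of 10.88, 11.25 and 11.40 in MesPC, against 9.35, 9.60 and 9.04 in MesE11. It was 3.66-fold higher in MesPC with no overlap (1.87 ± 0.14, adjusted p = 7.83e-06). Gpx7, of the same compartment, rose by 0.29 ± 0.08 (adjusted p = 0.0151). Gpx3, the peroxidase secreted into plasma, fell by 0.60 ± 0.07 (1.52-fold lower, adjusted p = 0.000162), and its 6 MesPC levels of 9.25 to 9.52 lay below the 3 MesE11 levels of 9.87 to 10.03. Gpx2, best known from the gut, fell by 0.37 ± 0.08 (adjusted p = 0.00619). Its MesPC levels of 6.78 to 7.02 were barely above the brightest bacterial control probe set (6.68). The calls of Gpx2 and Gpx7 were lost with the random block. Gpx6, below that control probe set in both groups, was not well above background.

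The widely expressed Gpx1 and Gpx4 did not pass. Gpx1, the cytosolic enzyme, had levels of 11.54, 11.80 and 12.04 in MesPC, against 11.62, 11.58 and 11.31 in MesE11 (0.28 ± 0.14, adjusted p = 0.123). Culture arrays 1 to 3 were above the tissue and arrays 4 to 6 were inside its range: with arrays 1 to 3 alone the difference was 0.50 and passed. Gpx4, which reduces lipid peroxides in membranes and guards against ferroptosis, had levels of 12.21, 12.34 and 12.43 in MesPC, against 12.46, 12.57 and 12.23 in MesE11. Its groups overlapped (-0.10 ± 0.08, adjusted p = 0.331).

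Peroxiredoxins reduce peroxide through a cysteine that thioredoxin then restores, and 3 of the 6 genes of this group were higher. Prdx4, the peroxiredoxin of the endoplasmic reticulum, rose by 0.58 ± 0.13 (adjusted p = 0.00583). Prdx6, which is restored by glutathione instead, had levels of 10.32, 10.45 and 10.92 in MesPC, against 10.15, 10.19 and 9.79 in MesE11 (0.49 ± 0.14, adjusted p = 0.0182). Srxn1, sulfiredoxin, repairs overoxidised peroxiredoxins, and had levels of 8.60, 8.67 and 8.82 in MesPC, against 8.38, 8.12 and 8.45 in MesE11 (0.37 ± 0.08, adjusted p = 0.00418). Neither gene overlapped, but both lost their call with the culture sets as a random block. Prdx2, the abundant cytosolic form of neurons and red cells, had levels of 13.40, 13.55 and 13.60 in MesPC, against 13.56, 13.57 and 13.58 in MesE11 (-0.05 ± 0.06, adjusted p = 0.474). The 3 MesE11 values lay inside the MesPC range. What part the shifts in erythroid and neuron markers have in the level of Prdx2 was not tested. Prdx3 (-0.13 ± 0.06) and Prdx5 (-0.11 ± 0.07) did not pass.

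The thioredoxin genes and their relatives held 6 higher, 1 lower and 7 that did not pass, of 14. Txn1, cytosolic thioredoxin, had levels of 13.13, 13.52 and 13.88 in MesPC, against 12.82, 12.99 and 12.79 in MesE11 (0.61 ± 0.17, 1.53-fold, adjusted p = 0.0157). The groups did not overlap, but the call was lost without MesE11 replicate 1 or 3. Txnrd1, the cytosolic selenoenzyme that reduces it, had levels of 11.41, 11.51 and 11.61 in MesPC, against 11.24, 11.20 and 11.26 in MesE11 (0.28 ± 0.05, adjusted p = 0.00259). Its further probe set rose by 0.30 ± 0.09. Txnip, which binds thioredoxin and inhibits it, had levels of 11.03, 11.27 and 11.41 in MesPC, against 10.87, 10.72 and 10.87 in MesE11 (0.43 ± 0.10, adjusted p = 0.00625). Thioredoxin, its reductase and its inhibitor were thus all higher in MesPC, each with no overlap, but each lost its call in some setting. That of Txnrd1 was lost with the culture sets as a random block and after centring on ribosomal protein probe sets. That of Txnip was lost after the same centring.

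Of the relatives, Txndc5, a disulfide isomerase of the endoplasmic reticulum, had levels of 11.34, 11.53 and 11.81 in MesPC, against 10.34, 10.32 and 10.13 in MesE11. It rose 2.44-fold with no overlap (1.28 ± 0.11, adjusted p = 1.51e-05). Txndc17, a cytosolic thioredoxin-like protein, rose by 0.57 ± 0.13. Txndc12 rose by 0.24 ± 0.08 with overlapping groups and failed in 8 alternative settings. The mitochondrial reductase Txnrd2 fell by 0.38 ± 0.06 (adjusted p = 0.000969). The mitochondrial thioredoxin Txn2 (0.04 ± 0.07), Txnrd3, Txndc11, Txndc15, Txnl1, Txnl4a and Txnl4b did not pass, with differences between -0.05 and 0.16.

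All 4 glutaredoxins, which use glutathione to reduce mixed disulfides or to carry iron-sulfur clusters, were lower in MesPC. Glrx3, a cytosolic iron-sulfur carrier, had levels of 11.45, 11.50 and 11.69 in MesPC, against 12.13, 12.10 and 11.96 in MesE11 (-0.54 ± 0.07, adjusted p = 0.00016). The cytosolic Glrx differed by -0.42 ± 0.10, and its further probe set by -0.38 ± 0.07, which also passed. Glrx2, of mitochondria, differed by -0.47 ± 0.07, but its further probe set gave -0.02 ± 0.06 and did not pass (adjusted p = 0.794). Glrx5, which serves iron-sulfur cluster assembly in mitochondria and heme synthesis, differed by -0.22 ± 0.06 (adjusted p = 0.0169) and lost its call with the random block. In each of the 4 every MesPC value lay below every MesE11 value.

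**Figure D3:**
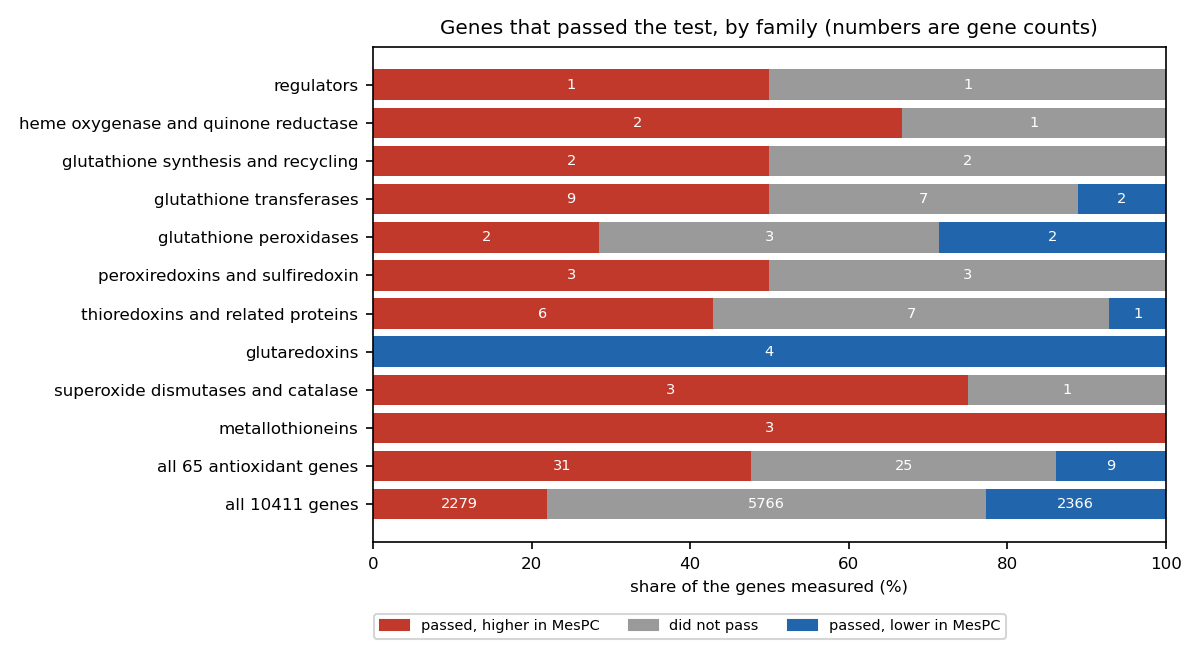
Share of genes (x axis, percent) that were higher, lower or did not pass in MesPC against MesE11, by family down the page, with the number of genes printed in each bar. All 4 glutaredoxins were lower and all 3 metallothioneins were higher, and the bars for all 65 antioxidant genes and all 10411 genes give the background.

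Superoxide dismutases turn superoxide into hydrogen peroxide, and 2 of their 3 forms were higher in MesPC. Sod3, the form secreted to the extracellular matrix, had levels of 10.29, 10.45 and 10.48 in MesPC, against 7.83, 7.84 and 8.19 in MesE11. At 2.47 ± 0.09, or 5.52-fold, this gene had the smallest adjusted p of the 65 (4.11e-08), with a wide gap between the groups. Sod1, the copper-zinc form of the cytosol, had levels of 12.97, 13.12 and 13.25 in MesPC, against 12.76, 12.73 and 12.61 in MesE11 (0.42 ± 0.07, 1.34-fold, adjusted p = 0.00166). Sod2, the manganese form of mitochondria, had levels of 9.60, 9.66 and 9.76 in MesPC, against 9.62, 9.64 and 9.61 in MesE11. The first was higher without overlap, while the values of Sod2 lay on top of each other (0.04 ± 0.05, adjusted p = 0.517). Cat, the catalase of peroxisomes, had levels of 10.57, 10.67 and 11.03 in MesPC, against 10.35, 10.32 and 10.44 in MesE11 (0.35 ± 0.09, adjusted p = 0.0143). This small gap lost its call with the random block and without MesE11 replicate 1 or 2.

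Metallothioneins gave the highest median of any family, 2.02, with all 3 higher. Mt2A, the form that metals and glucocorticoids induce widely, had levels of 11.74, 12.05 and 12.41 in MesPC, against 9.59, 9.52 and 9.62 in MesE11. The 5.62-fold rise (2.49 ± 0.15, adjusted p = 1.32e-06) left no overlap. Mt3, the form enriched in brain, had levels of 13.24, 13.49 and 13.68 in MesPC, against 11.39, 11.59 and 11.38 in MesE11, also far apart (2.02 ± 0.11, 4.07-fold, adjusted p = 8.69e-07). Mt1 had levels of 6.95, 7.02 and 7.24 in MesPC, against 6.87, 6.80 and 6.68 in MesE11. That is barely above the brightest bacterial control probe set, and the difference of 0.28 ± 0.08 (adjusted p = 0.0195) was lost with the random block. A further probe set, which the annotation gives to Mt1, Mt1f and Ttr together, was higher in MesPC by 3.21 ± 0.06. Which of these genes it reads cannot be told, so the level of Mt1 is left uncertain.

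The 3 metallothionein genes lie near each other on chromosome 19 of GRCr8, and their promoter windows are the only ones among the 56 antioxidant genes with an entry that hold 5 or more copies of the metal response element core TGCNCNC, a loose form of the core that the zinc-sensing factor MTF1 is known to bind. Mt1 has 7 copies, and Mt2A and Mt3 have 5 each, counted on both strands. Of all 27457 genes with an entry, 0.743% hold 5 or more. A single copy is common, present in 69.6% of the antioxidant genes and 52.0% of all genes. The windows are printed with each copy in capitals.
Mt1, chr19:10832926-10833225, minus strand: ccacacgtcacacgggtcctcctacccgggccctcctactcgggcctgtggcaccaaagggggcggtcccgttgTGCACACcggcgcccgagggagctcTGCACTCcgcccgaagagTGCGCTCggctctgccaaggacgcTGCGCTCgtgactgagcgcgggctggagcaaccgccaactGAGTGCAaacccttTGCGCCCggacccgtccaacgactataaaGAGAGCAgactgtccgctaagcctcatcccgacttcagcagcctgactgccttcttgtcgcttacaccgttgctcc
Mt2A, chr19:10838659-10838958, minus strand: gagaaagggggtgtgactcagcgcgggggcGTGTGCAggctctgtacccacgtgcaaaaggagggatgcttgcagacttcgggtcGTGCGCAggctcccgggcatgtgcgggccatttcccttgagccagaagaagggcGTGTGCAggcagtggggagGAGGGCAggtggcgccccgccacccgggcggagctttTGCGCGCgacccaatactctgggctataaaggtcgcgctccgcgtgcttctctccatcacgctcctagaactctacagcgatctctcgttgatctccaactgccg
Mt3, chr19:10856031-10856330, minus strand: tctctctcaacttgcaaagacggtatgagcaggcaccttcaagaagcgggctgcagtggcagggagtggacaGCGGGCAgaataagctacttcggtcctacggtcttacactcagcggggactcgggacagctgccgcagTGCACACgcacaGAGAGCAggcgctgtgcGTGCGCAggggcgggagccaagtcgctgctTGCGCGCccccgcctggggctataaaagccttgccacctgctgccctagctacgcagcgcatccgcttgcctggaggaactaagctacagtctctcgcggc

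**Figure D4:**
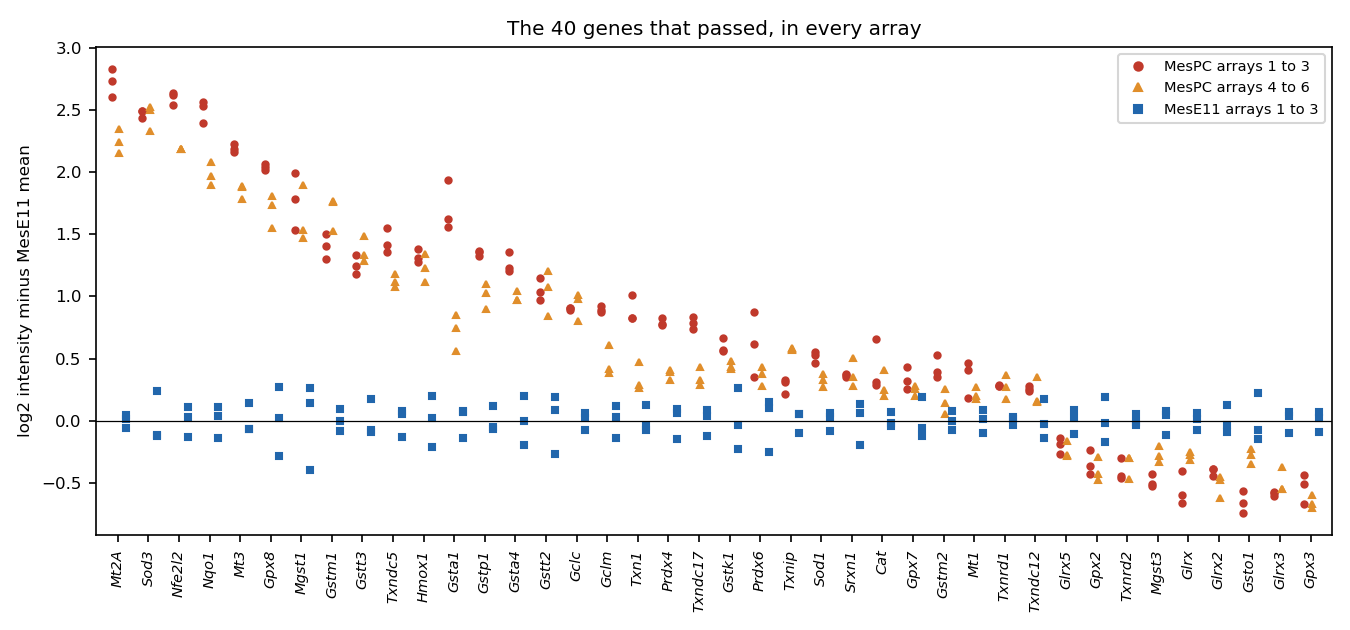
Log2 intensity minus the gene's mean over the 3 MesE11 arrays (y axis) for the 40 antioxidant genes that passed, ordered along the x axis by their difference, with 1 point per array (circles for MesPC arrays 1 to 3, triangles for MesPC arrays 4 to 6, squares for MesE11). The MesPC points of Mt2A, Sod3 and Nfe2l2 all lie above 2, and those of Gsta1 and Txn1 are lower in arrays 4 to 6 than in arrays 1 to 3.

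The culture sets differed in many of these genes. In 21 of the 65 (32.3%) arrays 1 to 3 were all above arrays 4 to 6, and in 10 (15.4%) all below, against 26% and 22.4% of all genes. Of the 31 genes higher in MesPC, 16 were higher in arrays 1 to 3, among them Nfe2l2, Nqo1, Gclm, Gstp1, Txn1, Mt2A and Mt3. Gstm1 and Txnip were lower there. The matching share among all genes higher in MesPC was not counted. Arrays 1 to 3 lay farther from the tissue across all probe sets, so the 16 are not read as a trait of these genes. Nfe2l2 was 0.41 higher in arrays 1 to 3, Nqo1 0.51 and Mt2A 0.47. The neuron markers had a mean level between 10.53 and 10.75 on arrays 1 to 3, but between 11.70 and 11.74 on arrays 4 to 6. For the dopaminergic neuron markers the means were 7.90 to 8.07 in the first set and 8.75 to 8.91 in the second. Astrocyte markers were higher in the first set, at 10.47 to 10.54 there and 10.23 to 10.32 in the second. The part of these shifts in the differences between the culture sets was not tested. With arrays 4 to 6 alone, 29 genes were higher and 9 lower, against 22.9% and 27.2% of all genes. With arrays 1 to 3 alone, 33 were higher and 11 lower, against 25.7% and 27% of all genes. Against MesE11, the difference of Txn1 was 0.34 with arrays 4 to 6 alone, that of Prdx4 0.37, that of Txndc17 0.35 and that of Gsto1 -0.29, all still past the threshold. For Gstm2 it was 0.15, and the call was lost. The difference of Txnip was 0.28 with arrays 1 to 3 alone and still passed.

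The genes around these enzymes were read in 7 lists, beside the background of 21.9% higher and 22.7% lower. Of 14 genes of glutathione supply and turnover, 2 were higher and 3 lower. Slc3a2, the heavy chain of the cystine transporter but not of it alone, rose by 0.88 ± 0.08. Slc7a11, also on this list, was not measured. Lap3, a peptidase that can split the dipeptide left from glutathione, averaged 7.54 in MesPC and was not well above background in MesE11. It was at least 1.81-fold higher in MesPC, counted from the brightest bacterial control probe set (adjusted p = 3.66e-05). Ggt7 fell by 0.62 ± 0.15, and Cbs, which starts the path from homocysteine to cysteine, by 0.39 ± 0.06. Ggt5 fell by 0.34 ± 0.12, a slight call (adjusted p = 0.0422) lost in 8 alternative settings. Of 9 genes of NADPH supply, 4 were higher and 1 lower: Mthfd1 of folate metabolism rose by 1.42 ± 0.08, the mitochondrial Idh2 by 1.32 ± 0.15 and the transhydrogenase Nnt by 1.14 ± 0.12, while Pgls of the pentose phosphate path fell by 0.28 ± 0.07. With the culture sets as a random block 3 NADPH genes were higher and 0 lower, and the Pgls call was also lost without MesE11 replicate 1.

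On a list of partners, relatives and other genes linked to NRF2, 4 of 17 were higher and 2 lower, with a median of 0.08. Bach1, Bach2, Maff, Fth1, Ftl1 and Blvrb, also on this list, were not measured. Nfe2l1, a relative of Nfe2l2, rose by 0.50 ± 0.09, the epoxide hydrolase Ephx1 by 0.48 ± 0.13 and Park7 by 0.21 ± 0.08, and Mafk, a DNA-binding partner, fell by 0.47 ± 0.06 and the carbonyl reductase Cbr1 by 0.43 ± 0.10. With the random block only Nfe2l1 was higher and only Mafk lower, the Ephx1 call was also lost without MesE11 replicate 1 or 2, and the Park7 call (adjusted p = 0.0494) was lost in 16 settings. Of 15 genes on a list of thiol repair and sulfoxide reduction, 7 were higher and 3 lower. The list also holds the disulfide isomerases P4hb, Pdia3, Pdia4 and Pdia6, which are among the 7, so the rises are not all of repair genes. The sulfoxide reductases Msra and Msrb1 did not pass. The endoplasmic reticulum genes P4hb (0.59 ± 0.10), Selenos (0.48 ± 0.08) and Ero1b (0.47 ± 0.10) led the rises, and the methionine sulfoxide reductase Msrb2 (-0.83 ± 0.12), Selenow (-0.47 ± 0.12) and Sephs2 (-0.47 ± 0.09) the falls. With the random block 3 genes of this list were higher and 2 lower, and Ero1b, Pdia4, Pdia6, Sesn1 and Sephs2 lost their calls.

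Of 13 genes of metal handling, 8 were higher and 2 lower, with a median of 0.38. The transferrin receptor Tfrc rose by 1.08 ± 0.05, the zinc importer Slc39a1 by 0.89 ± 0.12 and Ccs, the copper chaperone of Sod1, by 0.74 ± 0.10. The vesicular zinc transporter Slc30a3 fell by 1.07 ± 0.10. The other call lower, the zinc importer Slc39a8, averaged below the brightest bacterial control probe set in both groups and was lost with the random block. Of 10 genes that produce oxidants, 1 was higher and 2 lower: the monoamine oxidase Maob rose by 0.93 ± 0.19, and its relative Maoa fell by 0.78 ± 0.06. Duox2 fell by 0.26 ± 0.07, a call lost with the replicate block, with the random block and without MesE11 replicate 1 or 3. Of 12 peroxisome genes, 4 were higher and 1 lower. The largest rises there were Pex2 (0.51 ± 0.10), Hsd17b4 (0.40 ± 0.10) and Hacl1 (0.22 ± 0.08), and Pex6 fell by 0.41 ± 0.06. The Hacl1 call was lost in 11 alternative settings and that of Hsd17b4 with the random block and without MesE11 replicate 3. The fourth, Pex10, averaged below the brightest bacterial control probe set in both groups. With the random block 4 metal genes and 1 peroxisome gene were higher, with 1 lower in each.

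**Figure D5:**
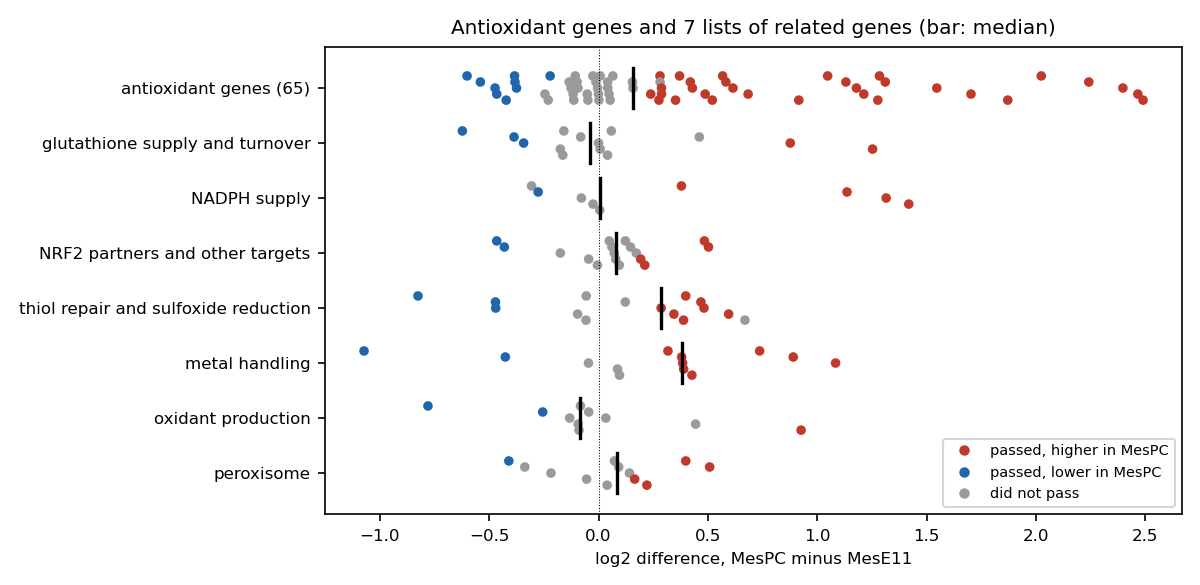
Difference in log2 intensity (MesPC minus MesE11, x axis) of the 65 antioxidant genes in the top row and of each measured gene of the 7 related lists below it, 1 point per gene, coloured by whether it passed, with the median as a bar. Among the related lists Mthfd1 at 1.42 and Idh2 at 1.32 are the largest rises, and Slc30a3 at -1.07 is the largest fall.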

How the data were processed

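RNA of 9 rat samples was measured on Affymetrix arrays. The labels' protocols name Tri-Reagent for extracting total RNA and biotin as the label. The authors deposited log2 intensity values. They made them with RMA, according to the submitters' processing notes (its version: not given in the sources used here). This method removes background, brings the arrays to nearly 1 distribution and gives 1 value per probe set, so a difference is always read against the rest of its array. Array medians lay between 8.61 and 8.67.

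Of 15923 probe sets, 57 controls were left out and 15866 tested. The annotation gave 1 symbol to 12783 and several to 312. The brightest single-symbol probe set over the 9 arrays stood for each of 10411 genes. The 65 antioxidant genes had 72 such probe sets, and 6 genes had several. MesPC was compared with MesE11 by lmFit and eBayes of limma 3.58.1 (R 4.3.3) at default settings, and the two-sided p-values were adjusted over the 15866. Precision is limited by the number of arrays. The fit was tested on simulated data in which arrays varied independently and no culture sets were present. That test cannot show how the sets affect the p-values. Plots were drawn with matplotlib 3.10.9.

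The lowest, median and highest MesPC value and each MesE11 value are given for genes past the threshold at 2-fold or more and for Nfe2l2, Keap1, Gclc, Gclm, Gsr, Gss, Hmox1, Nqo1, Cat, Sod1, Sod2, Sod3, Gpx1, Gpx4, Prdx2, Prdx6, Txn1, Txnrd1, Txnip, Srxn1, Mt1, Mt2A, Mt3 and Gstp1. Each related list names up to 3 of its largest passing rises and falls. The members and lists were chosen with earlier results of these data known, and the values of Glrx3 and Gpx3 and the mention of Pex10 were picked after values were seen. Promoters came from RefSeq (GRCr8). Replicate numbers did not pair the groups: same-numbered arrays deviated with correlations of 0.08, -0.12 and -0.11. The random block, of each culture set and of the MesE11 arrays, used limma's duplicateCorrelation (statmod 1.5.0, correlation 0.447). Alternatives were another normalization, 2 centrings, a filter on dim probe sets, averaging each gene's probe sets, blocks, each culture set alone, each array left out, and eBayes with trend and robust settings.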

Additional observations from a re-analysis of the deposited data

Results flagged for a closer look

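Glrx3 read 11.69 in MesPC array 4, apart from the other 5 culture arrays, which lay between 11.45 and 11.51. Among the 65 antioxidant genes, 1 had a culture array that far from the rest, where chance alone gives about 1 in 20. All 6 culture values were still below the 3 tissue values.

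Outside the 65 genes, 3 probe sets that the annotation gives to several symbols include a symbol of these families, and no gene's level is read from them. Probe set 1367613_at was higher in MesPC by 0.84 ± 0.12, with levels of 12.65 to 13.12 there. Probe set 1371237_a_at, given to Mt1, Mt1f and Ttr, was higher by 3.21 ± 0.06, with levels of 11.76 to 11.92 in MesPC and a mean of 8.65 in MesE11. The groups did not overlap in either. The third, 1368180_s_at, differed by -0.13 ± 0.06 with overlapping groups and did not pass (limma, adjusted p = 0.0866). These probe sets entered no count of the report.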

How the results depend on the processing

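No antioxidant gene that passed changed its direction under any alternative run, and the 15 that rose 2-fold or more kept their call in each (Gsta1 was not among the probe sets left without the dimmest 40%). Over the alternatives the antioxidant genes counted 23 to 33 higher and 6 to 11 lower, with 25 to 32 higher and 7 to 11 lower when 1 array was left out. Over all probe sets, 3128 were higher and 3565 lower. With the culture sets as a random block 1879 were higher and 1348 lower, and without the dimmest 40%, which tests fewer probe sets, 1936 were lower. Leaving out 1 array gave 2484 to 3171 higher and 2241 to 3458 lower, with 2241 without MesE11 replicate 3. The causes were not tested. With the replicate block, 33 antioxidant genes were higher and 10 lower, against 24.7% and 25.5% of all genes. Glrx5 lost its call and Gss, Gstm7, Gpx1 and Prdx3 gained one, but the numbers are not known to pair the samples. The median difference of all probe sets was -0.07 as deposited, -0.03 after quantile normalization again, -0.10 after centring on the median and -0.12 on ribosomal proteins, and that of the antioxidant genes was 0.16, 0.09, 0.12 and 0.10. When each gene's probe sets were averaged, Glrx2 differed by -0.24 and still passed. Centring on ribosomal proteins ended the calls of Cat, Gstm2, Mt1, Srxn1, Txndc12, Txnip and Txnrd1. Leaving out a MesE11 array ended those of Cat, Glrx5, Gpx7, Gstm2, Gsto1, Mt1, Prdx6, Txn1 and Txndc12.

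The genes whose sign turned passed in neither setting. After quantile normalization again these were Hmox2 (-0.015), Gstm5 (-0.036), Txndc11 (0.00014), Txnl4a (-0.025) and Sod2 (-0.018). After centring on the median they were Gstm5 (-0.035) and Txnl4a (-0.029), and on ribosomal proteins Hmox2 (-0.0020), Gsr (-0.0073), Gstm5 (-0.054), Txn2 (-0.013), Txnl4a (-0.048) and Sod2 (-0.014). With the replicate block, and with culture arrays 1 to 3 alone, they were Gstm5 (-0.017), Txndc15 (-0.038) and Txnl1 (0.053). With arrays 4 to 6 alone they were Keap1 (0.082), Gstm4 (0.027), Prdx2 (0.0041), Txn2 (-0.042), Txndc11 (0.0023) and Txnl4a (-0.018), and with each gene's probe sets averaged Txnl1 (0.029). With 1 array left out, the difference ranged from -0.052 to 0.017 for Keap1, -0.14 to 0.20 for Gsr, -0.024 to 0.012 for Gstm4, -0.053 to 0.053 for Gstm5, -0.0056 to 0.081 for Txn2, -0.0080 to 0.11 for Txndc15, -0.051 to 0.034 for Txnl1, -0.058 to 0.062 for Txnl4a and -0.055 to 0.0076 for Txnl4b.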
